A study of Mus musculus with 20 samples.

Results

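The 39 genes described here encode the ligands, receptors, SMAD proteins, regulators and Id targets of transforming growth factor beta (TGF-beta) and bone morphogenetic protein (BMP) signalling. They were chosen by name, and all 39 were found among the 45706 gene entries of the count table. Their transcripts were counted in 20 RNA sequencing libraries from mouse bone marrow, sorted into 3 populations, with all animals on the C57BL/6 background and aged 8 weeks. The animals either had an intact Hopx gene (wild type, WT, 11 libraries) or were Hopx knockouts (KO, 9 libraries); Hopx encodes a small homeodomain protein linked to SMAD signalling outside the blood. Sorting had yielded long-term haematopoietic stem cells (LT-HSC, 4 WT and 3 KO libraries), type 2 multipotent progenitors (MPP2, 3 and 3) and type 3 multipotent progenitors (MPP3, 4 and 3). The labels name the deleted gene but neither the animals nor how the allele was made, so libraries of different populations may come from 1 animal, and p-values measure only the spread between libraries.

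TGF-beta and BMP ligands bind pairs of type I and type II receptor kinases on the cell surface, often helped by co-receptors. The activated receptors phosphorylate SMAD proteins, which enter the nucleus with a common partner and regulate target genes such as those of the Id family. Inhibitory SMADs, ubiquitin ligases and nuclear corepressors such as Ski and Tgif1 restrain the pathway. In bone marrow, TGF-beta is stored in a latent form bound to latency proteins and is known for holding stem cells in quiescence.

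Sequencing gave 11163345 to 15189909 gene-assigned reads in each library. Genes with a read numbered from 14931 in KO MPP2 3 to 20831 in WT MPP3 2. These numbers did not follow the reads, since WT MPP3 2 had the fewest reads and KO MPP2 3 had 14255558. Hopx reads were present in 10 WT libraries of 11 and absent (0 reads) from all 9 KO libraries; WT LT-HSC replicate 4, by its label a WT library, also had 0 Hopx reads. Markers of stem cells (8 of 8 genes read) summed to 8079 to 13577 in LT-HSC, 1480.1 to 5252 in MPP2 and 1775 to 4670.2 in MPP3, in normalised read counts, which are counts divided by 1 size factor per library and are the unit of every level below. The 5 libraries WT LT-HSC 2, KO LT-HSC 1, WT MPP2 2, WT MPP3 2 and WT MPP3 3 carried 7923 to 24824 counts of 6 mature neutrophil genes, against at most 697 in any of the others. WT MPP2 replicate 3 stood apart by Flt3, a receptor of multipotent progenitors, at 4080.4 against 94.4 and 138 in its 2 sister libraries. It stood apart by other markers too, with Cd34 at 12660 (4071 and 918 in the sisters) and Cd48 at 7347 (1626 and 2003). The platelet gene Pf4 was at 1374 there (31814 and 21478 in the sisters). A list of 7 megakaryocyte and platelet genes summed to 3456 to 37699 in LT-HSC, 3598 to 76118 in MPP2 and 494 to 2053 in MPP3. A list of 5 granulocyte precursor genes summed to 1018 to 3088, 946 to 68155 and 18145 to 141928 in the same order (Ctsg at 0 in LT-HSC). A list of 6 red cell genes summed to 635 to 22377, 3553 to 73383 and 44.0 to 24638. WT MPP3 2 and WT MPP3 3 had the red cell gene Car1 at 0, against at least 10424 in the other MPP3 libraries. Their granulocyte precursor gene Elane was at 2.51 and 51.7, against at least 6702. The part of these markers in the population and KO differences below was not tested. By Xist and Y-linked transcripts, 6 of 9 KO libraries and 3 of 11 WT libraries were from females. Values are listed below in the order of replicate number, which only names a library. In bulk libraries, fewer cells of a type and less RNA per cell cannot be told apart.

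Of the 39 genes, 23 were read in every library, 32 had enough reads to be tested, and 7 did not (Tgfb2, Tgfb3, Bmp2, Bmp6, Bmpr1b, Smad9 and Nog). The filter keeps a gene that has enough reads in at least 3 libraries, so a gene can pass through the group where it is high, and 9 of the 32 tested genes lacked reads in at least 1 library. Per kilobase of exon, the co-receptor Eng was the most abundant at 528 counts per kilobase in LT-HSC, 270.4 in MPP2 and 279 in MPP3. Id2, Tgif1, Smad2 and Tgfbr3 followed in the mean over populations. Tgfbr3 ranked 3 of 39 per kilobase in LT-HSC, 4 in MPP2 and 23 in MPP3, whereas Tgif1 ranked 4, 5 and 1. The 39 genes lie on 16 chromosomes, and 19 overlap another annotated gene, 12 of them an antisense one, so that with the strand setting not given in the sources used here some reads could belong to the partner.

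**Figure D1:**
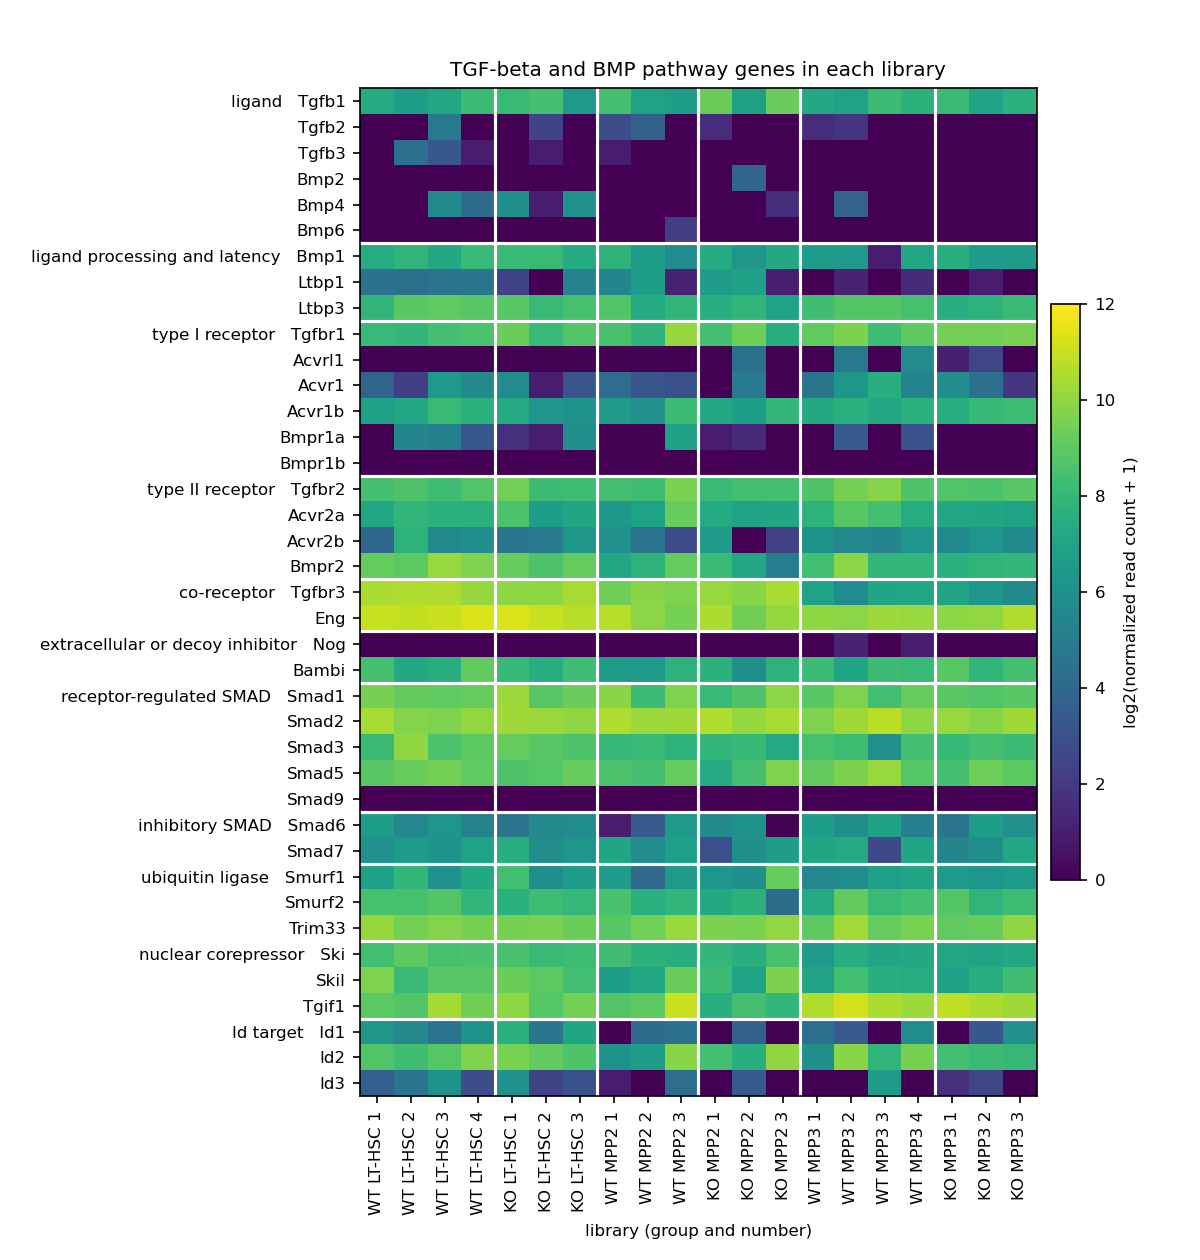
Levels of the 39 genes (rows, grouped by role) in each of the 20 libraries (columns, grouped by population and genotype), coloured by log2(normalised read count + 1). Eng and Smad2 have high counts in every library, Tgfbr3 is low in the 7 MPP3 libraries, and Bmpr1b and Smad9 have no read in any library.

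Sequences upstream of 3 genes are shown as examples from windows clear of annotated exons. Of these, 2 (Eng and Ltbp1) were among the genes called between populations, and Smad6, a feedback inhibitor of BMP signalling, was not called. Each is the 250 bases before the transcription start, from RefSeq on GRCm38.p6, 5′ to 3′ on the gene's strand. Capitals mark CAGAC or its reverse complement GTCTG, a SMAD-binding element. RefSeq windows were used for 27 of the 39 genes. The Eng window is chr2:32646345-32646594 (plus strand), the Ltbp1 window chr17:75005279-75005528 (plus strand) and the Smad6 window chr9:64022060-64022309 (minus strand).
Eng: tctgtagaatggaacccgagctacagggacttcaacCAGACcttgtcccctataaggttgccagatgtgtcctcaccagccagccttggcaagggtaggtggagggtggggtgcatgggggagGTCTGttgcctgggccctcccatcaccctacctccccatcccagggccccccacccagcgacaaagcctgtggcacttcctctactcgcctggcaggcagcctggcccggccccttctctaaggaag
Ltbp1: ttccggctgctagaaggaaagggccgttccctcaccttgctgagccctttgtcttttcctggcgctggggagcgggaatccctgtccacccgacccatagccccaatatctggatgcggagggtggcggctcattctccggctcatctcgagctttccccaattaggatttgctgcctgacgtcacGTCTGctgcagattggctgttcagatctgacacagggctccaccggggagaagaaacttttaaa
Smad6: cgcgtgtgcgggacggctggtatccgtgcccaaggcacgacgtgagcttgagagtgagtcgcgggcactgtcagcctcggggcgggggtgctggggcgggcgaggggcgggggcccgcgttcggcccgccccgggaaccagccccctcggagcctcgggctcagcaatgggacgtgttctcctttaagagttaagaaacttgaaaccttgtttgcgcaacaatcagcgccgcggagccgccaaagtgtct
The Eng window held the element at -214 and -127 bases from the start and the Ltbp1 window at -64, and these letters are not in the Smad6 window. A second Ltbp1 window, at chr17:75178531-75178780, held the element at -148 and -97. Of 32536 windows of the same length over all genes, 42.2% held CAGAC or GTCTG on either strand, and 9.65% held GGCGCC, the palindromic element bound by BMP SMADs, which is in none of the windows shown. Other called genes have windows that are not shown. Those of Bmpr2 and Ski, which overlap annotated exons, held GGCGCC (at -105 and -220) and no CAGAC. Windows of Tgif1 held CAGAC or GTCTG at -17, -191, -59 and -201. The windows shown are therefore no comparison of called with uncalled genes. A match is a description of the letters and not evidence of binding.

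Population differences were estimated as the mean of the WT and the KO difference on log2(value + 1), with limma and Benjamini-Hochberg adjustment over 17160 genes. Adding 1 understates the change of low genes. Between MPP2 and LT-HSC, 3 of the 32 tested genes passed an adjusted p of 0.05, all lower in MPP2 (Eng, Bmpr2 and Id1), where 7.32% of all genes tested passed and 5.08% did so in that direction. Between MPP3 and LT-HSC 4 passed, with Tgfbr3, Eng and Ski lower and Tgif1 higher in MPP3, against 7.4% of all genes. Between MPP2 and MPP3 3 passed, with Tgfbr3 and Ltbp1 higher and Tgif1 lower in MPP2, against 6.88% of all genes. The median log2 difference of the 32 genes was -0.74 for MPP2 minus LT-HSC (-0.11 over all genes), with 7 genes above and 25 below 0. It was -0.39 for MPP3 minus LT-HSC (-0.000439 over all genes) and -0.21 for MPP2 minus MPP3 (-0.09 over all genes). The 2 differences from LT-HSC share the LT-HSC libraries. The share of all genes below 0 was not counted beside the 25 genes, and a gene can pass the filter through LT-HSC alone.

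**Figure D2:**
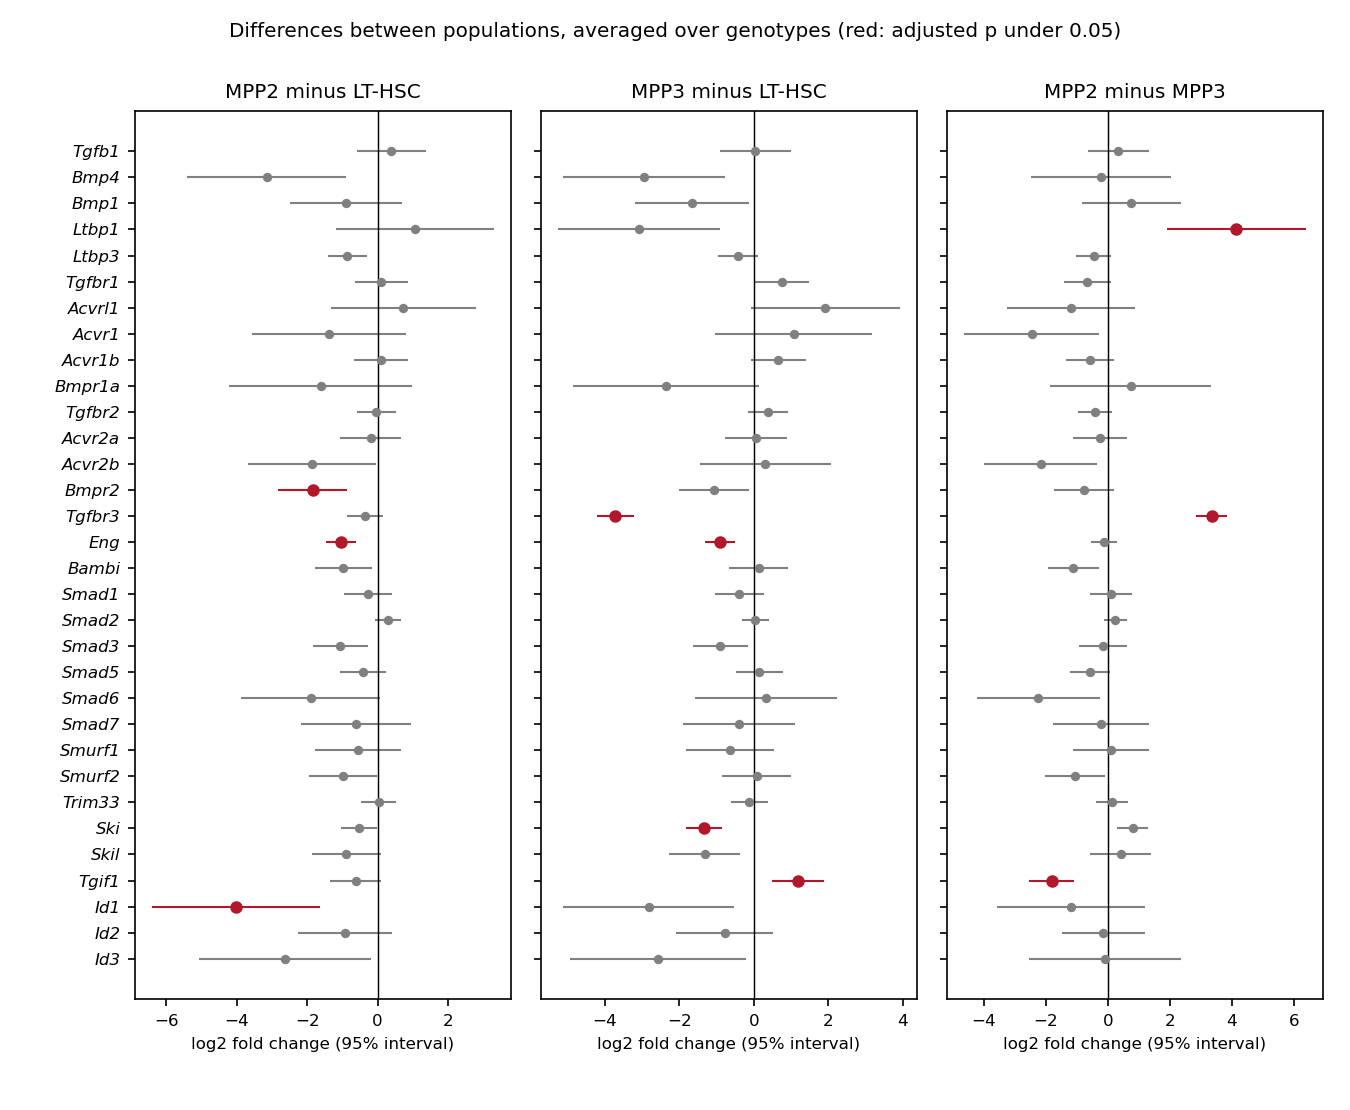
Log2 difference between populations for each of the 32 tested genes (points, with 95% intervals), averaged over genotypes; red marks an adjusted p under 0.05. Tgfbr3 stands far from 0 in the 2 comparisons with MPP3, and most points of the MPP2 minus LT-HSC panel lie below 0.

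Among the ligands, Tgfb1, the main TGF-beta of blood cells, was the 1 read in every library. Tgfb1 had 166, 106, 142 and 302 in the WT and 267, 355 and 86.2 in the KO LT-HSC libraries. In MPP2, Tgfb1 had 354, 118 and 106 in the WT and 623, 114 and 605 in the KO libraries. In MPP3, Tgfb1 had 148, 119, 294 and 208 in the WT and 292, 128 and 201 in the KO libraries. Its groups overlapped in every comparison and none of its tests passed, the smallest adjusted p by limma being 0.668 among the population comparisons. Bmp4, a BMP ligand known from marrow stroma, was read in 7 libraries. LT-HSC libraries held Bmp4 at 0, 0, 50.9 and 17.8 in the WT and 63.2, 0.878 and 67.2 in the KO ones. For MPP2, Bmp4 stood at 0, 0 and 0 in the WT and 0, 0 and 1.97 in the KO libraries. For MPP3, Bmp4 stood at 0, 12.6, 0 and 0 in the WT and 0, 0 and 0 in the KO libraries. Its reads lay mostly in LT-HSC, with log2 differences of -3.15 for MPP2 (limma adjusted p = 0.0828) and -2.94 for MPP3 (adjusted p = 0.106), neither of which passed. A stromal list, read beside it, summed over its 5 genes to 4.58 to 64.1 in LT-HSC, 42.6 to 411 in MPP2 (Lepr at 0) and 249.9 to 464 in MPP3. Most of the progenitor sums was Pdgfrb, at 0 to 53.1 in LT-HSC, 42.6 to 399 in MPP2 and 227 to 396 in MPP3. Lepr, Col1a1 and Col3a1 were at most 12.2 in any library, and Cxcl12 at most 34.9 outside KO MPP3 1 (237). The part of the list in the Bmp4 values was not tested. The other ligands were near the limit of detection: Tgfb2 was read in 7 libraries and Tgfb3 in 5, while Bmp2 (KO MPP2 replicate 2) and Bmp6 (WT MPP2 replicate 3) were each read in 1.

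Ltbp1, a latency protein that tethers TGF-beta to the matrix (chr17:75005568-75392512, plus strand), differed between the progenitor types. Ltbp1 was at 21.1, 20.9, 23.3 and 25 in the WT and 4.36, 0 and 39.9 in the KO LT-HSC libraries. Ltbp1 in MPP2 was at 44.6, 104 and 1.18 in the WT and 94.3, 117 and 0.983 in the KO libraries. Ltbp1 in MPP3 was at 0, 1.26, 0 and 1.8 in the WT and 0, 0.944 and 0 in the KO libraries. Of 6 MPP2 libraries 4 lay far above all MPP3 libraries, and the others (WT replicate 3 and KO replicate 3) lay within the MPP3 range. The platelet gene Pf4, read beside it, was at 31814, 21478 and 1374 in the WT and 55774, 46481 and 6536 in the KO MPP2 libraries, lowest in the same 2 libraries, and at most 174 in MPP3. In LT-HSC, Pf4 was at 12589, 14202, 990 and 8049 in the WT and 2716, 13815 and 27023 in the KO libraries. There KO replicate 2 held 13815 of Pf4 with Ltbp1 at 0, and WT replicate 3 held 990 with Ltbp1 at 23.3. The part of this in the Ltbp1 values was not tested. The log2 difference of MPP2 minus MPP3 was 4.14 ± 1.07 (SE; limma adjusted p = 0.026), on a mean of 60.4 ± 52.1 (SD, n = 6) in MPP2 against 0.572 ± 0.756 (SD, n = 7) in MPP3. By runs of the library numbers in the sample titles, which are not a labelled batch, it was 6.04 in libraries 101 to 106 and 6.32 in 115 to 120, but -0.05 in 52 to 54 and 0.49 in 81 to 88. Leaving out any 1 of the MPP2 libraries WT 1, WT 2, KO 1 and KO 2 or the MPP3 libraries KO 1 and KO 3 ended the call. Part of Ltbp1 overlaps the annotated gene Gm6276 on the same strand.

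Ltbp3, a second latency protein, and Bmp1, the protease that processes ligand and matrix precursors, were read in every library. Ltbp3 had 241, 493, 541 and 468 in the WT and 467, 279 and 359 in the KO LT-HSC libraries. In MPP2, Ltbp3 had 428, 168 and 239 in the WT and 184, 235 and 123 in the KO libraries. In MPP3, Ltbp3 had 314, 439.8, 445 and 358 in the WT and 182, 212 and 273 in the KO libraries. Of 7 LT-HSC libraries 5 lay at or above 359, and 1 of 6 MPP2 libraries did. The MPP2 minus LT-HSC difference of -0.87 did not pass (limma adjusted p = 0.0539). LT-HSC libraries held Bmp1 at 170.4, 229.8, 155 and 279 in the WT and 271, 267 and 167 in the KO ones. For MPP2, Bmp1 stood at 212, 105 and 54.3 in the WT and 169, 76.4 and 151 in the KO libraries. For MPP3, Bmp1 stood at 97.8, 85.4, 0.891 and 139.8 in the WT and 192, 94.4 and 95.4 in the KO libraries. WT MPP3 replicate 3 held 0.891 counts of Bmp1 where its sister libraries held 85.4 to 139.8, and no Bmp1 comparison passed.

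Among the type I receptors, Tgfbr1, the TGF-beta receptor kinase, was read in every library. Tgfbr1 was at 278, 243, 343 and 386 in the WT and 639, 268 and 437 in the KO LT-HSC libraries. Tgfbr1 in MPP2 was at 358, 226 and 1083 in the WT and 338, 662 and 176 in the KO libraries. Tgfbr1 in MPP3 was at 529, 797, 310.1 and 526 in the WT and 723, 708 and 773 in the KO libraries. The populations overlapped, and the MPP3 minus LT-HSC difference of 0.77 did not pass (limma adjusted p = 0.246). Acvr1b, the activin type I receptor, also overlapped in every comparison. Acvr1b had 115, 145, 281 and 209 in the WT and 168, 74.7 and 71.7 in the KO LT-HSC libraries. In MPP2, Acvr1b had 95.3, 67 and 302 in the WT and 149.5, 102 and 248 in the KO libraries. In MPP3, Acvr1b had 156, 195, 152 and 199 in the WT and 185, 261 and 313 in the KO libraries. Acvrl1, the endothelial receptor for BMP9 and BMP10 that pairs with Eng, had 0 reads in all 7 LT-HSC libraries, 5 of 6 MPP2 libraries and 3 of 7 MPP3 libraries. Its reads came from KO MPP2 replicate 2 (20.4 counts), WT MPP3 replicates 2 (27.6) and 4 (55), and KO MPP3 replicates 1 (1.05) and 2 (4.72). Acvr1 ranged from 0.878 to 88.1 in LT-HSC, 0 to 31.1 in MPP2 and 2.73 to 189 in MPP3, without a call (MPP2 minus MPP3 -2.45, limma adjusted p = 0.185). The BMP receptor Bmpr1a was read in 11 libraries and its highest value, 115, was in WT MPP2 replicate 3.

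Bmpr2, the type II receptor for BMPs (chr1:59763400-59879014, plus strand), was lower in MPP2 than in LT-HSC. LT-HSC libraries held Bmpr2 at 565, 495, 1149 and 815 in the WT and 590.3, 405 and 575 in the KO ones. For MPP2, Bmpr2 stood at 139, 223 and 580.0 in the WT and 292, 141 and 31.4 in the KO libraries. For MPP3, Bmpr2 stood at 329, 957, 244 and 239.9 in the WT and 200.4, 233 and 245 in the KO libraries. Every LT-HSC library lay at or above 405 and 5 of 6 MPP2 libraries at or under 292, but WT MPP2 replicate 3 lay inside the LT-HSC range. The means were 656 ± 251 (SD, n = 7) and 235 ± 191 (SD, n = 6), a log2 difference of -1.83 ± 0.46 (SE; limma adjusted p = 0.0237). The difference was below 0 in all 4 runs of library numbers, from -4.65 to -0.99. It did not pass without WT LT-HSC 3, KO LT-HSC 1, KO LT-HSC 3, WT MPP2 1 or WT MPP2 2, in each case left out alone, nor with edgeR (-1.51, adjusted p = 0.0689).

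Tgfbr2, the ligand-binding TGF-beta receptor, showed no population difference that passed. Tgfbr2 was at 343, 395, 309.8 and 431 in the WT and 688, 296 and 309 in the KO LT-HSC libraries. Tgfbr2 in MPP2 was at 345, 310.2 and 775 in the WT and 282, 345 and 337 in the KO libraries. Tgfbr2 in MPP3 was at 416, 709, 903 and 408 in the WT and 432, 391 and 477 in the KO libraries. Its highest values were WT MPP3 replicate 3 and WT MPP2 replicate 3, and the populations overlapped. Acvr2a, a type II receptor for activins and BMPs, was also highest in WT MPP2 replicate 3. Acvr2a had 147, 236, 203 and 195 in the WT and 381, 106 and 134 in the KO LT-HSC libraries. In MPP2, Acvr2a had 83.9, 124 and 585 in the WT and 168, 122 and 138 in the KO libraries. In MPP3, Acvr2a had 215, 469, 337 and 170.4 in the WT and 145, 134 and 119 in the KO libraries. In MPP3, all 4 WT values lay above all 3 KO values; the knockout comparison is given below. Its relative Acvr2b ranged from 15.6 to 215 in LT-HSC, 0 to 96.2 in MPP2 and 43.7 to 76.5 in MPP3, and the MPP2 minus MPP3 difference of -2.16 did not pass (limma adjusted p = 0.159).

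Tgfbr3 (betaglycan, chr5:107106570-107289629, minus strand), the co-receptor that presents TGF-beta 2 and inhibins to the receptors, had the smallest adjusted p of the members. LT-HSC libraries held Tgfbr3 at 1413, 1512, 1505 and 1112 in the WT and 1007, 987 and 1378 in the KO ones. For MPP2, Tgfbr3 stood at 677, 925 and 817 in the WT and 1126, 944 and 1443 in the KO libraries. For MPP3, Tgfbr3 stood at 125, 55.3, 135 and 142 in the WT and 126, 79.3 and 52.7 in the KO libraries. Every MPP3 library lay under every LT-HSC and every MPP2 library, without overlap, and the LT-HSC and MPP2 libraries overlapped each other. Means were 1273 ± 231 in LT-HSC (SD, n = 7), 989 ± 267 in MPP2 (SD, n = 6) and 102 ± 38.7 in MPP3 (SD, n = 7). The log2 difference was -3.71 ± 0.23 (SE) for MPP3 minus LT-HSC (limma adjusted p = 3.88e-08). For MPP2 minus MPP3 it was 3.35 ± 0.24 (limma adjusted p = 3.37e-07). Both passed in each of the 31 alternative settings tried, including WT libraries alone and KO libraries alone, and both kept their sign in all 4 runs of library numbers. Between MPP2 and LT-HSC the difference of -0.36 did not pass (95% interval -0.87 to 0.14), and it was 0.05 in KO libraries alone.

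Eng (endoglin, CD105; chr2:32646595-32682669, plus strand), the co-receptor for TGF-beta and BMP9 that is also used as a surface marker of stem cells and endothelium, was lower in both progenitor types than in LT-HSC. Eng was at 2009, 1909.6, 2088 and 2664 in the WT and 2586, 2045 and 1673 in the KO LT-HSC libraries. Eng in MPP2 was at 1662, 971 and 715 in the WT and 1459, 679 and 1081 in the KO libraries. Eng in MPP3 was at 1033, 970.0, 1202 and 1135 in the WT and 989.6, 1059 and 1506 in the KO libraries. All 7 LT-HSC libraries lay above all 7 MPP3 libraries and above all 6 MPP2 libraries, though KO LT-HSC replicate 3 and WT MPP2 replicate 1 nearly met. The means were 2139 ± 359 (SD, n = 7), 1094 ± 397 (SD, n = 6) and 1128 ± 186 (SD, n = 7) in LT-HSC, MPP2 and MPP3. The log2 difference of MPP2 from LT-HSC was -1.02 ± 0.20 (SE; limma adjusted p = 0.00619), and that of MPP3 was -0.91 ± 0.20 (adjusted p = 0.00589). It was below 0 in all 4 runs of library numbers for both populations. With the 5 libraries carrying neutrophil genes left out, an alternative chosen after seeing the data, the differences were -0.94 and -0.86 and the limma adjusted p-values 0.0783 and 0.085, so neither passed. The endothelial list, read beside Eng, summed to 1378 to 2271 in LT-HSC, 813 to 1809 in MPP2 and 1237 to 2254 in MPP3 over 7 of 7 genes read, and its defining gene Cdh5 had 0 counts in 17 of 20 libraries and at most 10.6; its part in the Eng values was not tested. Part of Eng overlaps Fpgs on the other strand.

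**Figure D3:**
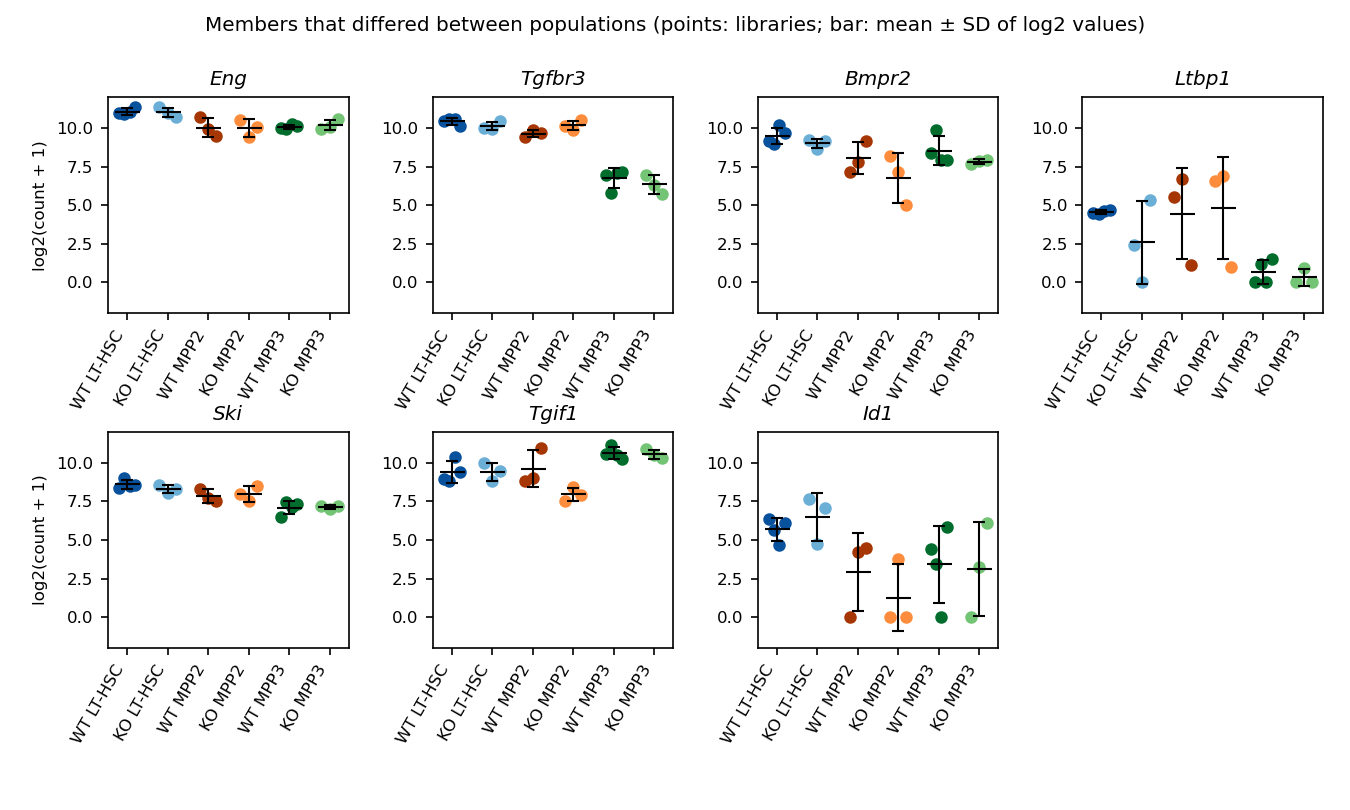
Log2(count + 1) of the 7 genes called in any population comparison, by group (points: libraries; bar: mean ± SD of the log2 values). Tgfbr3 of the 7 MPP3 libraries lies under all other points, Eng and Ski are tight within groups, and Ltbp1 and Id1 spread from 0 upward within groups.

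Bambi, a decoy receptor without a kinase domain, ranged from 149 to 557 in LT-HSC, 62.2 to 215 in MPP2 and 131 to 477 in MPP3. The MPP2 minus MPP3 difference was -1.10 and the MPP2 minus LT-HSC difference -0.97, and neither passed (limma adjusted p = 0.106 and 0.145). The secreted BMP antagonist Nog was read in WT MPP3 replicates 2 and 4, at 1.26 and 0.902.

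The receptor-regulated SMADs Smad1, Smad2, Smad3 and Smad5 were read in every library, and Smad9 in none. Smad2, which carries TGF-beta signals, ranged from 822 to 1367 in LT-HSC, 1112 to 1539 in MPP2 and 808 to 1742 in MPP3, and its population differences lay between 0.04 and 0.29 without a call. Smad1 and Smad5, which carry BMP signals, ranged from 269 to 1195 and 166 to 1151 over all libraries, and their population differences did not pass. Smad3 is the other TGF-beta SMAD. Smad3 had 291, 1042, 390.5 and 506 in the WT and 566, 466 and 399 in the KO LT-HSC libraries. In MPP2, Smad3 had 256, 283 and 216 in the WT and 246, 261 and 158 in the KO libraries. In MPP3, Smad3 had 359, 308, 65.9 and 337 in the WT and 260.2, 351 and 302 in the KO libraries. Every LT-HSC value lay above every MPP2 value, 1 of 3 members whose LT-HSC and MPP2 libraries did not overlap in that direction (Eng, Smad3 and Id1; 1.77% of all genes). The log2 difference of -1.05 ± 0.37 (SE) did not pass (limma adjusted p = 0.0901), nor did -0.90 in MPP3 (adjusted p = 0.166).

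Among the inhibitory SMADs, Smad6, which mainly restrains BMP signals and whose upstream window is printed above, was read in 19 libraries. LT-HSC libraries held Smad6 at 104, 47.5, 76.4 and 39.3 in the WT and 24, 50.9 and 55.4 in the KO ones. For MPP2, Smad6 stood at 0.874, 10.0 and 89.8 in the WT and 51.4, 68.4 and 0 in the KO libraries. For MPP3, Smad6 stood at 103, 62.8, 118 and 35.2 in the WT and 25.2, 105 and 67.2 in the KO libraries. WT MPP2 replicate 1 and KO MPP2 replicate 3 were near or at 0 and the populations overlapped; MPP2 minus MPP3 was -2.23 (limma adjusted p = 0.182). Smad7, which restrains TGF-beta signals, was read in every library. Smad7 was at 65.9, 95.9, 67.9 and 124 in the WT and 181, 59.7 and 74.4 in the KO LT-HSC libraries. Smad7 in MPP2 was at 134, 56 and 109.9 in the WT and 6.67, 63.1 and 102 in the KO libraries. Smad7 in MPP3 was at 133, 161, 5.35 and 129.8 in the WT and 43, 61.4 and 141 in the KO libraries. Single low libraries (KO MPP2 replicate 1 and WT MPP3 replicate 3) set the spread of Smad7, and no comparison passed.

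The ubiquitin ligases, which mark receptors and SMADs for degradation or, as Trim33 does, act on the common SMAD, had no population call. Trim33 ranged from 631 to 1113 in LT-HSC, 468 to 1145 in MPP2 and 524 to 1304 in MPP3, and Smurf1 from 17 to 576 over all libraries. Smurf2 had 359.9, 364, 447 and 239 in the WT and 197, 306 and 251 in the KO LT-HSC libraries. In MPP2, Smurf2 had 379, 193 and 241 in the WT and 155, 211 and 17.7 in the KO libraries. In MPP3, Smurf2 had 161, 550.3, 275 and 345 in the WT and 444, 229 and 311 in the KO libraries. KO MPP2 replicate 3, at 17.7, was far under all other libraries for Smurf2.

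Ski, a corepressor that blocks SMAD target genes (chr4:155154075-155222592, minus strand), was lower in MPP3 than in LT-HSC. LT-HSC libraries held Ski at 329.7, 523, 359.7 and 372 in the WT and 372, 269 and 310.4 in the KO ones. For MPP2, Ski stood at 323, 210.1 and 182 in the WT and 249, 180.3 and 362 in the KO libraries. For MPP3, Ski stood at 87.8, 178, 138 and 157 in the WT and 146, 127 and 148 in the KO libraries. All MPP3 values lay under all LT-HSC and all MPP2 values, and MPP2 and LT-HSC overlapped. However, WT MPP3 replicate 2 (178) and KO MPP2 replicate 2 (180.3) nearly met. Tgfbr3, Eng and Ski were the members whose MPP3 libraries all lay under the LT-HSC libraries (2.6% of all genes), and Tgfbr3 and Ski those whose MPP2 libraries all lay above MPP3 (0.956% of all genes). The log2 difference of MPP3 minus LT-HSC was -1.34 ± 0.23 (SE; limma adjusted p = 0.00102), on means of 140.4 ± 28.1 and 362 ± 80.2 (SD, n = 7 and 7). It passed in each of 31 alternative settings but KO libraries alone. The MPP2 minus MPP3 difference of 0.81 did not pass (limma adjusted p = 0.051). Its relative Skil ranged from 269 to 812 in LT-HSC, 101 to 804 in MPP2 and 115 to 329 in MPP3, with a log2 difference of -1.31 in MPP3 that did not pass (limma adjusted p = 0.0988). It passed with DESeq2 (adjusted p = 0.0461), with limma and sex as a covariate (-1.31, adjusted p = 0.0396) and with limma and the run of library numbers as a covariate (-1.52, adjusted p = 0.0231).

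Tgif1, a homeodomain corepressor that binds SMAD2 and SMAD3 (chr17:70844205-70853546, minus strand), went the other way and was higher in MPP3 than in the other populations. Tgif1 was at 496, 444, 1342 and 677 in the WT and 1009, 453 and 709 in the KO LT-HSC libraries. Tgif1 in MPP2 was at 446, 520.4 and 2021 in the WT and 185, 338 and 246 in the KO libraries. Tgif1 in MPP3 was at 1502, 2332, 1451 and 1212 in the WT and 1876, 1461 and 1247 in the KO libraries. MPP3 libraries lay at or above 1212, and 5 of 6 MPP2 libraries at or under 520.4, but WT MPP2 replicate 3 lay inside the MPP3 range. MPP3 minus LT-HSC was 1.18 ± 0.33 (SE; limma adjusted p = 0.0335) and MPP2 minus MPP3 was -1.81 ± 0.34 (adjusted p = 0.00425). Without WT MPP2 replicate 3 the latter was -2.15, and in WT libraries alone it was -1.02 and did not pass (limma adjusted p = 0.532). MPP3 minus LT-HSC was above 0 in all 4 runs of library numbers, but it did not pass in 14 of 31 alternative settings, among them edgeR and 10 of the 20 that leave out 1 library. MPP2 minus MPP3 was below 0 in all 4 runs, and near 0 (-0.21) in the run 52 to 54, which holds WT MPP2 replicate 3.

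The Id genes are direct BMP targets that encode dominant-negative helix-loop-helix proteins and are used as readouts of BMP activity. Of these, Id1 was lower in MPP2 than in LT-HSC. Id1 had 81.5, 49.4, 24.4 and 67.8 in the WT and 198, 25.5 and 136 in the KO LT-HSC libraries. In MPP2, Id1 had 0, 18 and 21.3 in the WT and 0, 12.4 and 0 in the KO libraries. In MPP3, Id1 had 20.2, 10.1, 0 and 56.8 in the WT and 0, 8.5 and 66.3 in the KO libraries. Every LT-HSC value of Id1 (chr2:152736251-152737410, plus strand) lay above every MPP2 value, and 3 of 6 MPP2 libraries had 0 reads. Those libraries (WT 1, KO 1 and KO 3) had 17021, 16220 and 14931 genes with a read, against 18161 to 18469 in the other MPP2 libraries. The MPP3 libraries at 0 (WT 3 and KO 1) had the fewest genes in MPP3, 15826 and 17817. In LT-HSC, the library with the fewest genes (KO 1, 17609) had the highest Id1. The part of this in the Id1 values was not tested. The log2 difference of MPP2 minus LT-HSC was -4.01 ± 1.13 (SE; limma adjusted p = 0.039), on means of 8.62 ± 9.85 (SD, n = 6) and 83.3 ± 63.5 (SD, n = 7). It did not pass in 16 of 30 alternative settings, among them edgeR (-3.45, adjusted p = 0.145), and 11 of the 20 that leave out 1 library. Within the 52 to 54 run it was -0.19. MPP3 minus LT-HSC was -2.82 and did not pass (limma adjusted p = 0.155).

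Id2, which restrains lymphoid and other lineage factors, had the highest level per kilobase of the Id genes. LT-HSC libraries held Id2 at 427, 322, 463 and 838 in the WT and 779, 555 and 420.2 in the KO ones. For MPP2, Id2 stood at 69.1, 100.1 and 921 in the WT and 345, 189 and 1022 in the KO libraries. For MPP3, Id2 stood at 62.5, 939, 227 and 750.2 in the WT and 336, 286 and 252 in the KO libraries. Its libraries spanned more than 10-fold within WT MPP2 and within WT MPP3, and no comparison passed. Its SD within groups on the log2 scale was larger than that of 93.6% of genes of like level, against 91.6% for Tgif1 and 10.6% for Ski. Id3 was at 11, 24.7, 67.9 and 6.25 in the WT and 66.4, 4.39 and 7.26 in the KO LT-HSC libraries. Id3 in MPP2 was at 0.874, 0 and 18.9 in the WT and 0, 9.77 and 0 in the KO libraries. Id3 in MPP3 was at 0, 0, 96.2 and 0 in the WT and 2.1, 4.72 and 0 in the KO libraries. Id3 was read in 13 libraries, in all 7 LT-HSC libraries but in 3 of 6 MPP2 and 3 of 7 MPP3 libraries, and its differences of -2.64 and -2.56 from LT-HSC did not pass (limma adjusted p = 0.184 and 0.227).

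**Figure D4:**
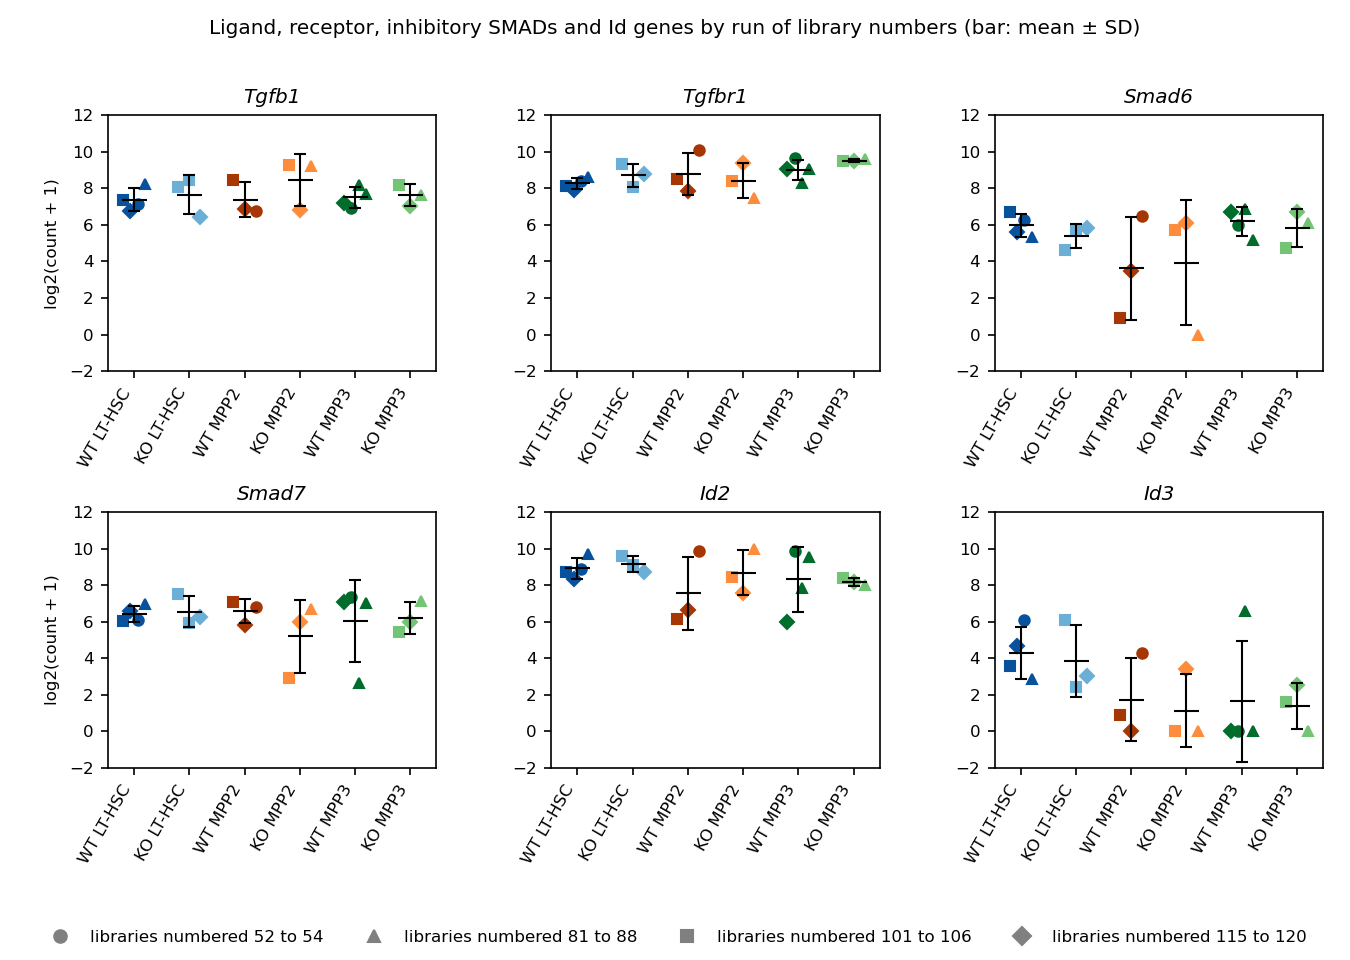
Log2(count + 1) of Tgfb1, Tgfbr1, Smad6, Smad7, Id2 and Id3 by group, with the symbol giving the run of library numbers (points: libraries; bar: mean ± SD of the log2 values). The 3 populations overlap in every panel, and Id3 is at 0 in 7 libraries.

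The comparison the genotype labels imply is KO against WT within each population. No member passed in LT-HSC, MPP2, MPP3, their average, or the test of whether the KO difference varied between populations. By limma, genes passing among all those tested came to 0.00583% in LT-HSC, 0.0117% in MPP2, 0.00583% in MPP3, 0.0117% for the average and 0% for the test of variation. At an unadjusted p under 0.05 the members numbered 0 in LT-HSC, 2 in MPP2, 1 in MPP3, 2 for the average and 1 for the variation. The same unadjusted rule took 2.66%, 7.88%, 2.02%, 5.03% and 3.07% of all genes. With sex as a covariate the members at an unadjusted p under 0.05 by limma numbered 1, 3, 2, 4 and 1, and the rule took 3.67%, 7.87%, 3.19%, 7.68% and 3.14% of all genes. edgeR called 0 members in all 5 comparisons, and of all genes 0.00583% for the average and 0% in the other 4. DESeq2 called 0 members in LT-HSC, 1 in MPP2 (Tgif1), 1 in MPP3 (Bmpr1a), 1 for the average (Bmpr1a) and 0 for the variation. Of all genes it called 0.122%, 0.653%, 0.128%, 0.315% and 0.0466%. Bmpr1a in MPP3 was at 0, 10.1, 0 and 7.21 in the WT and 0 in all 3 KO libraries, so that 2 of 4 WT libraries had no read either, and by limma it did not pass there (adjusted p = 1). The median log2 difference over the 32 genes was -0.10 in LT-HSC, -0.12 in MPP2 and -0.12 in MPP3, against -0.03, -0.10 and 0.03 over all genes.

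**Figure D5:**
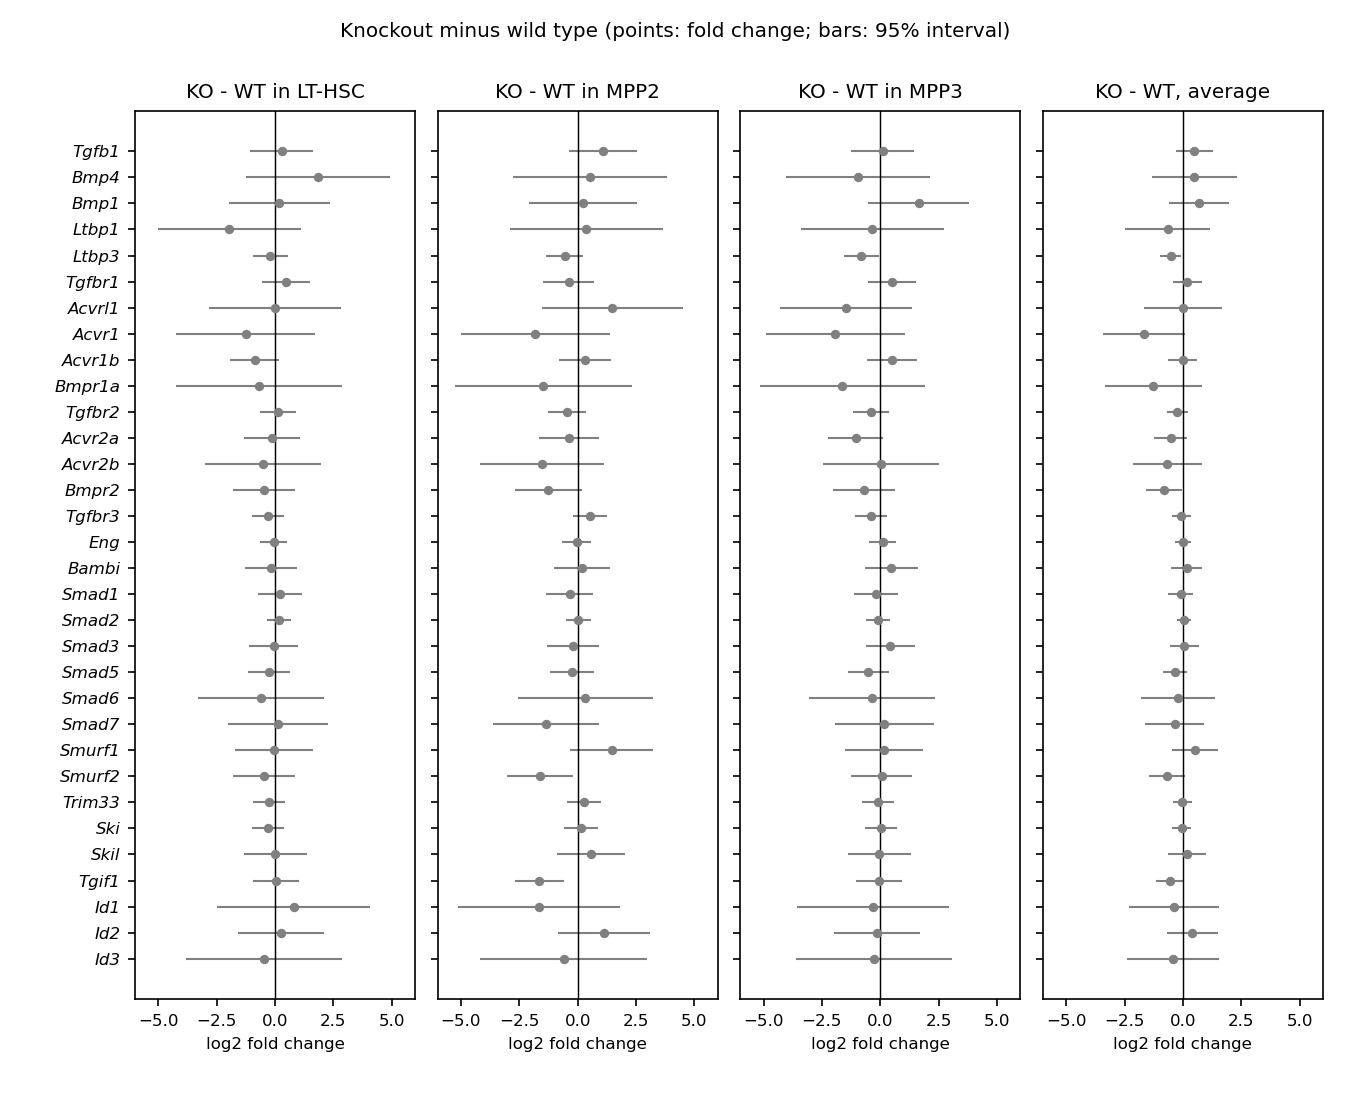
Log2 difference of KO minus WT (points, with 95% intervals) for each of the 32 tested genes in LT-HSC, MPP2, MPP3 and their average. Intervals are narrow for Eng, Smad2 and Tgfbr3 in the average and cross 0 for all but 2 genes there.

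The precision differed widely between genes. Averaged over populations, the 95% interval of KO minus WT was -0.34 to 0.35 on the log2 scale for Eng, -0.27 to 0.33 for Smad2 and -0.47 to 0.35 for Tgfbr3. For Id1 it was -2.33 to 1.53, and for Tgfb1 -0.31 to 1.29. Over the 32 genes, the half-width of that interval was 0.78 (median) and that within single populations 1.32 to 1.41.

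In MPP2, the smallest p for a KO difference was that of Tgif1, at -1.64 ± 0.50 (SE; unadjusted p = 0.00417, limma adjusted p = 0.41). The KO libraries lay under all WT libraries, 1 of 2 members whose MPP2 genotypes did not overlap, the other being Tgfbr3, higher in KO (5.93% of all genes). Of the WT values 1, in replicate 3, was far above the others, and without it the Tgif1 difference was -0.95. Smurf2 (-1.62, unadjusted p = 0.0263) and Bmpr2 (-1.25, unadjusted p = 0.0822) had the next smallest p. The limma adjusted p-values were 0.594 and 0.688. With 1 library left out, the difference ranged from -2.27 to -0.52 for Smurf2 and from -1.95 to -0.37 for Bmpr2. KO MPP2 replicate 3 held the lowest MPP2 value of both, 17.7 and 31.4. For Tgif1 the test of whether the KO difference varied between populations gave an unadjusted p of 0.0452 (limma adjusted p = 1).

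In MPP3, the members of smallest p were Ltbp3 (-0.81, unadjusted p = 0.0375), Acvr2a (-1.06, unadjusted p = 0.0774) and Bmp1 (1.64, unadjusted p = 0.129). All 3 had a limma adjusted p of 1. The KO libraries of Ltbp3 and Acvr2a all lay under the WT libraries, as did those of 1.82% of all genes. The highest WT values of both were in WT MPP3 replicates 2 and 3, which carried neutrophil genes as no KO MPP3 library did. WT MPP3 replicates 1 and 4 also lay above every KO value, with Ltbp3 at 314 and 358 (KO at most 273). Acvr2a was at 215 and 170.4 there (KO at most 145). Without the 5 libraries carrying neutrophil genes, 0 members had an unadjusted p under 0.05 by limma in MPP3, beside 1.44% of all genes. That fit holds fewer WT MPP3 libraries, and the part of the neutrophil genes in these differences was not tested. In LT-HSC the members of smallest p were Acvr1b (-0.87), Ltbp1 (-1.96) and Bmp4 (1.85), with unadjusted p-values of 0.0995, 0.195 and 0.222. No member separated the genotypes there, where 5% of all genes did not overlap. In the average over populations they were Ltbp3 (-0.53), Bmpr2 (-0.81) and Tgif1 (-0.56), with unadjusted p-values of 0.0236, 0.045 and 0.0593. The limma adjusted p was 0.857 for each. With the run of library numbers as a covariate, these averages were -0.46, -0.47 and -0.14.

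A further list of 69 pathway genes was counted for comparison, with 68 found in the files and 39 tested. Between MPP2 and LT-HSC 3 passed, all lower in MPP2 (Fkbp1a, a receptor-bound immunophilin, Inha, an inhibin subunit, and Rgmb, a BMP co-receptor), against 7.32% of all genes. Inha averaged 80.3 in LT-HSC and 2.92 in MPP2 (limma adjusted p = 0.000722), and Rgmb 59.8 and 2.41 (adjusted p = 0.00176). Between MPP3 and LT-HSC 5 passed: Inha, Rgmb and Bmp7, a BMP ligand, were lower, and Cdkn1a, a cell-cycle inhibitor, and Fstl3, an activin antagonist, were higher in MPP3, against 7.4% of all genes. Bmp7 averaged 25.2 in LT-HSC and had 0 counts in all 7 MPP3 libraries (limma adjusted p = 0.0459). Cdkn1a averaged 218 in LT-HSC and 718 in MPP3 (limma adjusted p = 0.0136). Between MPP2 and MPP3 3 passed, all lower in MPP2 (Cdkn1a, Fkbp1a and Nrros, which anchors latent TGF-beta), against 6.88% of all genes. In the KO comparisons 0 of the 39 passed by limma. At an unadjusted p under 0.05 they numbered 4 in LT-HSC, 3 in MPP2, 1 in MPP3 and 2 in the average, beside 2.66%, 7.88%, 2.02% and 5.03% of all genes.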

How the data were processed

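Per the submitters' processing notes, the authors used TopHat2 2.1.1 for alignment to GRCm38, HTSeq 0.11.2 for gene counts and DESeq for scaling. What they deposited is a normalised signal, that is, gene counts over a size factor for the library. The annotation release, strand setting and filters, not given in the sources used here, may affect genes that overlap others. All values were whole multiples of 1 read within 1e-06, and reads recovered this way served only for depth, edgeR and DESeq2. The 5 HTSeq summary entries, which hold counts not assigned to a gene, were left out. They held 78.6 to 81.5% of all counts in each library. Symbols, positions and exon lengths came from GENCODE M21 (GRCm38).

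A count model was planned as an option, but since the values were scaled the main test was limma 3.58.1 (R 4.3.3) with trend and robust variances on log2(value + 1), over 6 group means of 20 libraries and 17160 genes kept by edgeR's filter. A gene was called where the p adjusted over all genes by Benjamini-Hochberg was under 0.05. The test was tested on simulated data. Alternatives were edgeR 4.0.16, DESeq2 1.42.0, TMM scaling, a pseudocount of 8, no filter, a mean of at least 50, the run of library numbers or sex as a covariate, each library left out and each genotype alone. Leaving out 5 libraries with neutrophil markers above 1000 was added after seeing the data.

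The members, roles and lists were chosen with earlier results of these data known. Listed by library are each member called in any comparison, 11 fixed members (Tgfb1, Eng, Tgfbr1, Tgfbr2, Acvrl1, Smad3, Smad6, Smad7, Id1, Id2 and Id3) and the 3 of smallest p in each KO comparison.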

Additional observations from a re-analysis of the deposited data

Results flagged for a closer look

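In the groups of 4 libraries, WT LT-HSC and WT MPP3, 64 sets of values were examined for a single library far from the other 3 by Dixon's ratio, which flags about 1 in 20 groups by chance. It picked out 4, all in WT MPP3, a number near that rate. For Bmp4 and Id3 the other 3 libraries were at 0, so the ratio is 1 whatever the value and that rate does not apply. In WT MPP3 replicate 2, Bmp4 was at 12.56 where the other 3 libraries had 0. The same library held Bmpr2 at 957.4, above 239.86 to 328.83 in the others, and Bambi at 130.67, under 284.04 to 299.58. In WT MPP3 replicate 3, Id3 was at 96.22 where the others had 0. These libraries carried 24381 and 18752 counts of the 6 mature neutrophil genes, against at most 209 in the other WT MPP3 libraries, and the part of this in the member values was not tested.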

How the results depend on the processing

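The number of members called for MPP2 minus LT-HSC (3, beside 7.32% of all genes tested) was 1 with edgeR (4.5%), 5 with DESeq2 (10.5%), 0 in WT libraries alone (0.46%), 0 in KO libraries alone (0.497%) and 0 without the 5 libraries carrying neutrophil genes (2.48%). For MPP3 minus LT-HSC (4, beside 7.4%) it was 7 with DESeq2 (9%), 1 in KO libraries alone (1.6%) and 2 without those 5 libraries (5.3%). For MPP2 minus MPP3 (3, beside 6.88%) it was 5 with DESeq2 (9.09%), 1 in WT libraries alone (0.249%) and 1 without those 5 (1.92%). The share of all genes called moved in the same direction as the members' count in each of these. For KO minus WT, DESeq2 called 1 member in MPP2, 1 in MPP3 and 1 in the average, against 0 by limma. Leaving out 1 library gave 1 to 4 members for MPP2 minus LT-HSC, with 1 without WT LT-HSC 3, KO LT-HSC 1, KO LT-HSC 3 or WT MPP2 2. It gave 3 to 6 for MPP3 minus LT-HSC and 2 to 5 for MPP2 minus MPP3, with 5 without WT MPP2 3, and 0 in every KO comparison. The cause of these shifts was not tested, beyond the fewer libraries in the subsets. The 10 called population differences and the 12 KO differences of smallest p kept their sign under every alternative that gave them a value. Other differences did change sign in some, among them Tgfbr3 for MPP2 minus LT-HSC (0.05 in KO libraries alone) and Smad2 for MPP3 minus LT-HSC (-0.10 there).

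Without the 5 libraries, Bmpr2 was -1.82 and Id1 -4.07 for MPP2 minus LT-HSC, Tgif1 1.11 for MPP3 minus LT-HSC and -1.55 for MPP2 minus MPP3, and Ltbp1 3.54, none of which passed. Some members passed only under an alternative. With DESeq2 these were Ltbp3 and Smad3 for MPP2 minus LT-HSC, Ltbp1, Bmpr1a and Skil for MPP3 minus LT-HSC, and Bmpr1a and Ski for MPP2 minus MPP3. With edgeR Ltbp1 passed for MPP3 minus LT-HSC, and with a mean of at least 50 Ski passed for MPP2 minus MPP3. Leaving out 1 library also brought in Ltbp3, Bmp4, Tgif1, Acvr2b or Smad3 for MPP2 minus LT-HSC, Ltbp1, Bmp4, Skil or Id3 for MPP3 minus LT-HSC, and Ski, Smad6, Acvr2b or Acvr1 for MPP2 minus MPP3. No paired analysis was possible because the labels give no replicate numbers and name no animal, although libraries of 1 genotype and different populations carry neighbouring numbers (52, 53 and 54 are WT MPP3, MPP2 and LT-HSC). With the run of library numbers as a covariate, 4, 5 and 4 members passed in the 3 population comparisons (11.1%, 7.2% and 8.37% of all genes), the added ones being Bmp4, Skil and Ski. With sex as a covariate 3, 5 and 3 passed, Skil being added. Genes with few reads, among them Id1, Id3, Bmp4, Ltbp1 and Acvrl1, are limited by depth and by how many genes a library detected. The single low values of Bmp1, Smad7 and Smurf2 lay in WT MPP3 3, KO MPP2 1 and KO MPP2 3. These libraries had 15826, 16220 and 14931 genes with a read, and the part of this in those values was not tested.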

Other observations

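Tgfb1 varied between runs of the library numbers in the sample titles, a split noticed after its values were seen. It ranged from 166 to 623 in the 6 libraries numbered 101 to 106 and from 201 to 605 in the 5 numbered 81 to 88. In the 6 libraries numbered 115 to 120 it ranged from 86.2 to 148, and in the 3 numbered 52 to 54 from 106 to 142. The libraries of the first 2 runs all lay above those of the others, and each of the runs 101 to 106, 115 to 120 and 81 to 88 holds libraries of both genotypes. The labels do not say what the numbers stand for, and the difference between runs was not tested.

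Relative to genes of like mean level, the spread of Ski within groups was among the smallest of the members and that of Id2 the largest. In WT MPP2 replicate 3, the library with 4080.4 counts of Flt3, Tgfbr1 (1083), Tgfbr2 (775), Acvr2a (585), Tgif1 (2021) and Id2 (921) were each the highest of the 3 WT MPP2 libraries. So were other members, among them Bmpr2 (580.0) and Skil (620). Tgfb1, Bmp1, Ltbp1, Acvr1, Acvr2b, Eng, Smad3 and Ski were lowest there. The share of all genes highest in that library was not counted.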
